A study of Danio rerio with 14 samples.

Results

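Connexins are the subunits of vertebrate gap junctions, and their transcripts were examined here in ventricles of adult zebrafish. The genes were taken as the rows whose symbol begins with cx or with gja to gje followed by a digit, which gave 33 of the 39289 rows of the table. Of these, 8 had a mean of at least 1 CPM (reads scaled to a common library total) over the 14 libraries and 7 of these are described below as the cardiac connexins: gja5a, gja3, cx39.4, cx43.4, cx43, gja5b and cx36.7. The mean level therefore chose the genes, and that they are expressed is a description and not a finding.

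RNA was sequenced from pools of excised ventricles in 14 libraries, 3 of TMEM43-P111L, 4 of TMEM43-S358L, 4 of TMEM43-WT and 3 of non-transgenic controls (NTG), all of the strain labelled TL1. The transgenic lines carry human TMEM43, a protein of the nuclear envelope and endoplasmic reticulum, linked to eGFP. The insert is driven in cardiomyocytes by the zebrafish myl7 promoter and was placed with the Tol2 transposon system. It holds the variant p.P111L, the variant p.S358L or the wild-type sequence. The study names p.S358L as a cause of arrhythmogenic cardiomyopathy and p.P111L as found in an affected individual, with uncertain relevance. By its measurements, both variant lines had less transgene mRNA than TMEM43-WT, and TMEM43-S358L had less fusion protein. The lines thus differ in the amount of transgene mRNA as well as in the variant. The analysed fish were offspring of in-crosses of the second generation, and each library pools several ventricles, so that the spread between libraries is a spread between pools. By the labels, 2 of 3 TMEM43-P111L, 1 of 4 TMEM43-S358L, 3 of 4 TMEM43-WT and 1 of 3 NTG libraries came from fish of 18 to 21 months and the others from fish of 5 months. Genotype and age are thus partly mixed, and the labels rather than the single age given in the text of the study were used. Reads of the human transgene were not analysed here.

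Each connexin spans the membrane with its ends in the cytoplasm, a ring of subunits forms a hemichannel, and hemichannels of neighbouring cells dock to a channel through which ions and small molecules pass. In heart muscle this coupling carries the action potential from cell to cell, and different connexins dominate in working ventricle, atrium, conduction tissue and blood vessels. In mammals the ventricle relies mainly on Cx43, whereas the atrium, the fast conduction system and arterial endothelium use Cx40. Teleost fish have kept additional connexin copies, and some zebrafish genes are known by their size in kilodaltons and others by their alpha (gja), beta (gjb), gamma (gjc) or delta (gjd) subfamily.

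The libraries held 20621770 to 32418475 reads, and the factors by which the library sizes were scaled (TMM) were lowest in TMEM43-WT replicate 1 (0.8243) and highest in TMEM43-WT replicate 6 (1.137). All 10 of 10 genes of a cardiomyocyte marker list were found and tested. Their summed level was 64630 to 76300 CPM in TMEM43-P111L, 69440 to 90040 in TMEM43-S358L, 61340 to 81490 in TMEM43-WT and 71830 to 82470 in NTG. The ventricular myosin vmhc, a member of this list, lay between 697 and 1450 CPM in the 14 libraries, so that the labelled tissue carried this marker. The atrial myosin myh6 had 47.0 to 56.5 CPM in TMEM43-P111L, 11.2 to 82.7 in TMEM43-S358L, 24.8 to 36.6 in TMEM43-WT and 9.38 to 18.5 in NTG. In bulk RNA, fewer cells of a type and less RNA per cell cannot be told apart.

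The 7 genes are listed in the table on GRCz11. The row gja5a (RefSeq gene ID 404729) covers chromosome 9 from 30464402 to 30477594 on the plus strand, and the row gja3 (387533) lies on the same chromosome and strand from 21405626 to 21411409. On chromosome 9 there is also cx43.4 (30276), from 46405587 to 46415813 on the minus strand, which RefSeq now names gjc4b. The gene cx43 (30236, gja1b in RefSeq) lies on chromosome 20 from 40715163 to 40720453 on the minus strand. The row cx39.4 (557275, gja4) covers chromosome 19 from 37153409 to 37154436 and gja5b (570445) chromosome 1 from 47414734 to 47431453, both on the minus strand. The row cx36.7 (100005880, gjd6) covers chromosome 7 from 12835048 to 12836225 on the plus strand. Reads that were split between places or features occur in 2 of the 7 genes, gja5a in 13 libraries and gja5b in 10. Their levels are uncertain to the extent of these splits. One other row of the table overlapped any of the 7, the lncRNA LOC110440050 on the strand opposite to cx43.4, with a mean of 0.000922 CPM.

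Several of the 7 genes have a connexin neighbour with a mean below 1 CPM in these ventricles. The gene cx30.3 lies 566 bases from gja3 on the same strand and had a mean of 0.321 CPM, against 58.1 CPM for gja3. Next to cx43, at a distance of 3486 bases, cx32.2 had a mean of 0.955 CPM, against 8.13 CPM for cx43. It was not silent, with 2 to 54 reads in a library. Further along, cx28.1, cx28.9, cx32.3 and cx34.5 had 0 to 0.0326 CPM. The lens connexin genes gja8a and gja8b stand beside gja5a and gja5b and had 0.0481 and 0.0466 CPM. These values are CPM with the library total as denominator and are not divided by length.

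The other 25 rows stayed below the mean that chose the genes. Just inside it was cx36.7 with 2.52 CPM, and just outside cx32.2 with 0.955 CPM. Of the 25 rows, 4 passed the filter on low counts, namely cx32.2, cx34.4, cx27.5 with 0.361 CPM and cx30.3. A count of 0 in all 14 libraries was listed for 5 rows, cx28.6, cx28.8, cx32.3, cx39.9 and cx52.7. The remaining rows, cx47.1, gjd1a, cx44.2, gja8a, gja8b, cx31.7, cx55.5, cx52.9, cx30.9, gjd2b, cx52.6, cx23, cx28.1, cx28.9, cx34.5 and gjd4, had means of 0.00291 to 0.138 CPM. A further 4 connexin genes of RefSeq are listed under other symbols and were not chosen by the rule: gja1a with 0.292, gjc1 with 0.301, gjc4a.2 with 0 and gjd1b with 0.874 CPM.

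Per kilobase of exon, gja5a and gja3 made up most of the summed transcripts of the 7 genes. On the scale of CPM per kilobase (TMM-scaled), the mean over 14 libraries was 21.1 for gja5a, 12.2 for gja3, 6.80 for cx39.4, 2.91 for cx43.4, 2.87 for cx43, 2.54 for gja5b and 2.16 for cx36.7. In 13 of 14 libraries gja5a ranked first among the 7 genes, and in TMEM43-S358L replicate 4 gja3 did. The difference between gja5a and gja3 was 8.94 ± 6.74 CPM per kilobase (SD over 14 libraries). The gene gja3 exceeded cx39.4 in 11 of 14 libraries, by 5.40 ± 6.63, and cx39.4 exceeded cx43.4 in 14 of 14, by 3.88 ± 2.94. For gja3 and cx39.4 the mean difference was smaller than its SD. From cx43.4 downwards the differences between neighbours in the order were small beside their spread. The gene cx43.4 exceeded cx43 in 10 of 14 libraries by 0.0406 ± 1.45. The gene cx43 exceeded gja5b in 8 by 0.328 ± 1.57, and gja5b exceeded cx36.7 in 9 by 0.379 ± 1.65. Per kilobase, cx43, the ortholog of the main connexin of the mammalian ventricle, was therefore not among the 3 highest of the 7 genes at the RNA level. This order depends on the deposited exon length, 1028 bases for cx39.4 and 2849 for cx43. Without division by length the mean was 57.0 CPM for gja3, 53.2 for gja5a, 8.18 for cx43, 7.12 for gja5b and 6.99 for cx39.4.

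The summed level of the 7 genes overlapped between the genotypes. It was 50.6 ± 8.24 CPM per kilobase in TMEM43-P111L (SD, n = 3), 50.1 ± 5.82 in TMEM43-S358L (n = 4), 49.2 ± 5.25 in TMEM43-WT (n = 4) and 53.2 ± 8.93 in NTG (n = 3). The share held by gja5a and gja3 together was 66.6 ± 4.47% in TMEM43-P111L, 67.2 ± 2.41% in TMEM43-S358L, 62.2 ± 11.9% in TMEM43-WT and 66.9 ± 8.47% in NTG. Over all libraries it was lowest in TMEM43-WT replicate 1 and highest, at 76.6%, in NTG replicate 2. The ratio of gja3 to gja5a per kilobase ran from 0.264 to 1.01. It was 0.535 to 0.982 in TMEM43-P111L, 0.264 to 1.01 in TMEM43-S358L, 0.277 to 0.568 in TMEM43-WT and 0.322 to 0.925 in NTG, so that the ranges overlapped.

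**Figure D1:**
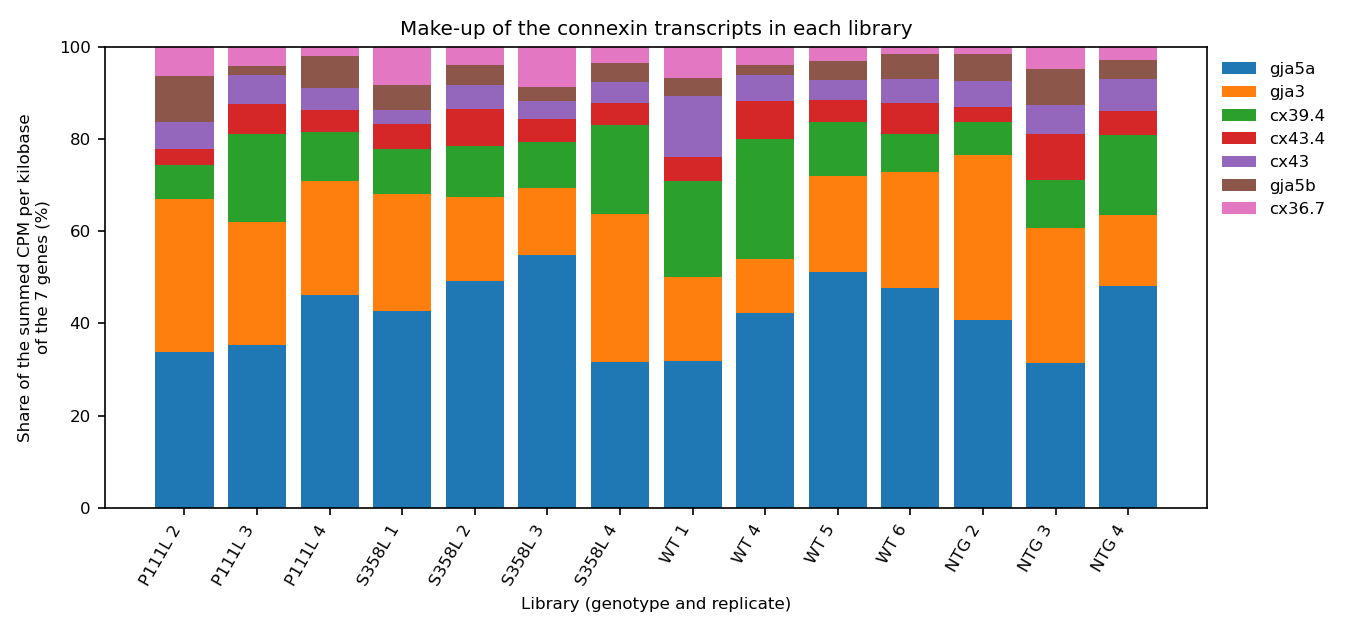
Share of each of the 7 connexin genes in their summed CPM per kilobase (y axis, %) for each library (x axis, genotype and replicate number), stacked by gene. The 2 lowest segments, gja5a and gja3, together are lowest in TMEM43-WT replicate 1 and reach 76.6% in NTG replicate 2, and cx39.4 covers 7.16 to 26.1%.

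None of the 7 connexins differed between genotypes or ages at the thresholds of the study. Calls rest on edgeR's quasi-likelihood test and ask for an adjusted p under 0.05 (Benjamini-Hochberg over all tested genes) together with a log2 fold change of 0.05 or more in either direction. Of the 7 genes, 0 were called in TMEM43-P111L against NTG, where 7.59% of 17437 tested genes were called, 0 in TMEM43-S358L against NTG (6.15% of all genes) and 0 in TMEM43-WT against NTG (8.34%). Between the lines, 0 were called in TMEM43-P111L against TMEM43-S358L (1.04% of all genes), 0 in TMEM43-P111L against TMEM43-WT (0.826%) and 0 in TMEM43-S358L against TMEM43-WT (1.62%). For 18 to 21 months against 5 months, with genotype as a covariate, 0 were called (0.969% of all genes). DESeq2 also called 0 of the 7 genes in each of the 7 comparisons. At these background shares, fewer than 1 called gene among 7 would be the usual count, so the counts of 0 are no result about connexins as a group.

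At an unadjusted p under 0.05 in edgeR the counts were 0 of 7 in TMEM43-P111L against NTG (23.6% of all genes), 0 of 7 in TMEM43-S358L against NTG (22.6%) and 0 of 7 in TMEM43-WT against NTG (24.7%). They were 0 in TMEM43-P111L against TMEM43-S358L (9.57%), 0 in TMEM43-P111L against TMEM43-WT (10.2%), 1 in TMEM43-S358L against TMEM43-WT (12.4%), and 2 between the ages (13.5%). The genes were cx43 between the lines, and cx36.7 and cx39.4 between the ages. The median log2 fold change of the 7 genes was -0.018 for TMEM43-P111L, -0.112 for TMEM43-S358L and 0.003 for TMEM43-WT, each against NTG, beside medians over all tested genes of -0.0027, 0.005 and -0.0114. The 3 comparisons share the same NTG libraries.

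**Figure D2:**
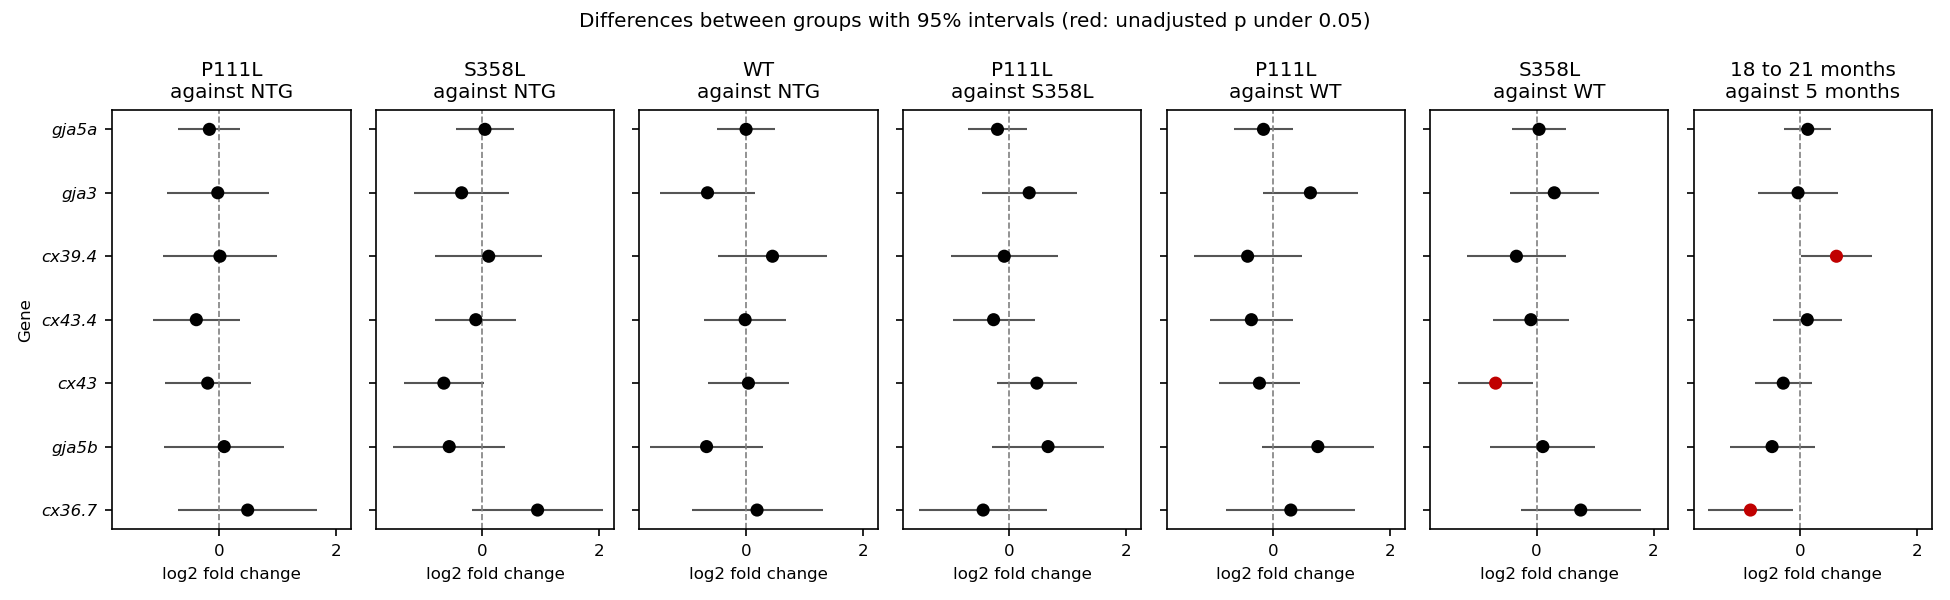
Log2 fold change (x axis, edgeR) of each connexin gene (y axis) in the 7 comparisons, with lines for the 95% interval and red points for an unadjusted p under 0.05. The 3 red points are cx43 in TMEM43-S358L against TMEM43-WT (-0.70), and cx36.7 (-0.85) and cx39.4 (0.62) between the ages; 0 points pass the adjusted threshold.

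Of the connexins of the alpha family, gja5a is 1 of the 2 zebrafish relatives of mammalian Cx40. Its level was the steadiest of the 7, with 51.0, 42.3 and 51.3 CPM in TMEM43-P111L ventricles, 48.0, 58.7, 69.4 and 46.4 in TMEM43-S358L, 34.4, 57.7, 60.6 and 63.4 in TMEM43-WT, and 65.3, 37.6 and 59.0 in NTG. The groups overlapped throughout, and the highest library exceeded the lowest 2.02-fold. The log2 fold changes against NTG were -0.16 for TMEM43-P111L (95% interval -0.69 to 0.37), 0.04 for TMEM43-S358L (-0.45 to 0.54) and 0.003 for TMEM43-WT (-0.49 to 0.50). For TMEM43-P111L the interval covers folds of 0.619 to 1.29, and changes within it remain compatible with the data of 3 libraries a group. Its biological coefficient of variation in edgeR was 23.8%, against a median of 32.6% over all tested genes.

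The paralog gja5b, mutated in the leopard zebrafish with spots in place of stripes, was lower and far more variable. It had 16.6, 2.56 and 8.75 CPM in TMEM43-P111L ventricles, 6.92, 5.73, 4.22 and 6.74 in TMEM43-S358L, 4.89, 3.52, 5.53 and 7.97 in TMEM43-WT, and 10.4, 10.4 and 5.49 in NTG. Both the highest and the lowest of the 14 values were TMEM43-P111L libraries, 6.50-fold apart and resting on 418.53 and 51.5 reads. The log2 fold changes against NTG were 0.09 (95% interval -0.93 to 1.12) for TMEM43-P111L, -0.57 (-1.53 to 0.39) for TMEM43-S358L and -0.67 (-1.64 to 0.29) for TMEM43-WT.

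The gene gja3 is needed for conduction in the embryonic zebrafish ventricle and is known in mammals as a lens connexin. Its levels were 93.0, 59.4 and 50.9 CPM in TMEM43-P111L ventricles, 53.4, 40.2, 33.9 and 87.1 in TMEM43-S358L, 36.2, 29.6, 45.9 and 62.3 in TMEM43-WT, and 106, 64.6 and 35.3 in NTG. Each group spread widely, with a coefficient of variation of 41.7% over the 14 libraries, and the groups overlapped. The log2 fold changes against NTG were -0.02 (95% interval -0.89 to 0.86) for TMEM43-P111L, -0.35 (-1.17 to 0.46) for TMEM43-S358L and -0.66 (-1.47 to 0.16) for TMEM43-WT.

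For TMEM43-S358L the libraries of 5 months alone gave larger differences from NTG for gja3 and gja5b. Among these 3 TMEM43-S358L and 2 NTG libraries the log2 fold change of gja3 was -1.003 (unadjusted p = 0.00786, adjusted p = 0.152 in edgeR) and that of gja5b -0.88 (unadjusted p = 0.0238, adjusted p = 0.227). Both genes were picked from the 7 with their values known, and neither was called, so these values are a description. In this fit 88 of 18236 tested genes were called. At 5 months the gja3 values were 33.9 to 53.4 CPM in TMEM43-S358L and 64.6 and 106 CPM in NTG. The single library of the older age of each group ran the other way, with 87.1 CPM in TMEM43-S358L and 35.3 CPM in NTG. With age as a covariate, 0 of the 7 genes were called in any genotype comparison.

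The gene cx43 is the ortholog of the main ventricular connexin of mammals and the gene of the short fin mutant in zebrafish. Its mean was lowest in TMEM43-S358L, at 5.895 CPM, against 8.175 CPM or more in the other groups. Its levels were 10.3, 8.41 and 5.83 CPM in TMEM43-P111L ventricles, 3.75, 6.96, 5.47 and 7.40 in TMEM43-S358L, 16.2, 8.45, 5.85 and 8.01 in TMEM43-WT, and 9.94, 8.33 and 9.67 in NTG. All 4 TMEM43-S358L libraries lay below all 3 NTG libraries, while the range of TMEM43-S358L overlapped with those of TMEM43-P111L and TMEM43-WT. Against NTG the log2 fold change in TMEM43-S358L was -0.66 (95% interval -1.34 to 0.03, edgeR unadjusted p = 0.0584, adjusted p = 0.240), and against TMEM43-WT it was -0.70 (-1.34 to -0.06, unadjusted p = 0.0341, adjusted p = 0.344). Without TMEM43-WT replicate 1, the library with 16.2 CPM and the lowest TMM factor, the value against TMEM43-WT was -0.34 (adjusted p = 0.643). In TMEM43-P111L the log2 fold change against NTG was -0.19 (-0.92 to 0.54) and in TMEM43-WT 0.04 (-0.64 to 0.73).

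Groups without overlap were found for cx43 alone among the 7 genes, in TMEM43-S358L against NTG, where 19.2% of all tested genes had no overlap. In TMEM43-P111L against NTG (27.1%) and TMEM43-WT against NTG (21.7%) it was 0 of 7. Between the lines it was also 0 of 7, beside shares over all genes of 9.79% in TMEM43-P111L against TMEM43-S358L, 10.8% in TMEM43-P111L against TMEM43-WT and 8.8% in TMEM43-S358L against TMEM43-WT. A count of 0 or 1 of 7 is near or below these background shares.

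**Figure D3:**
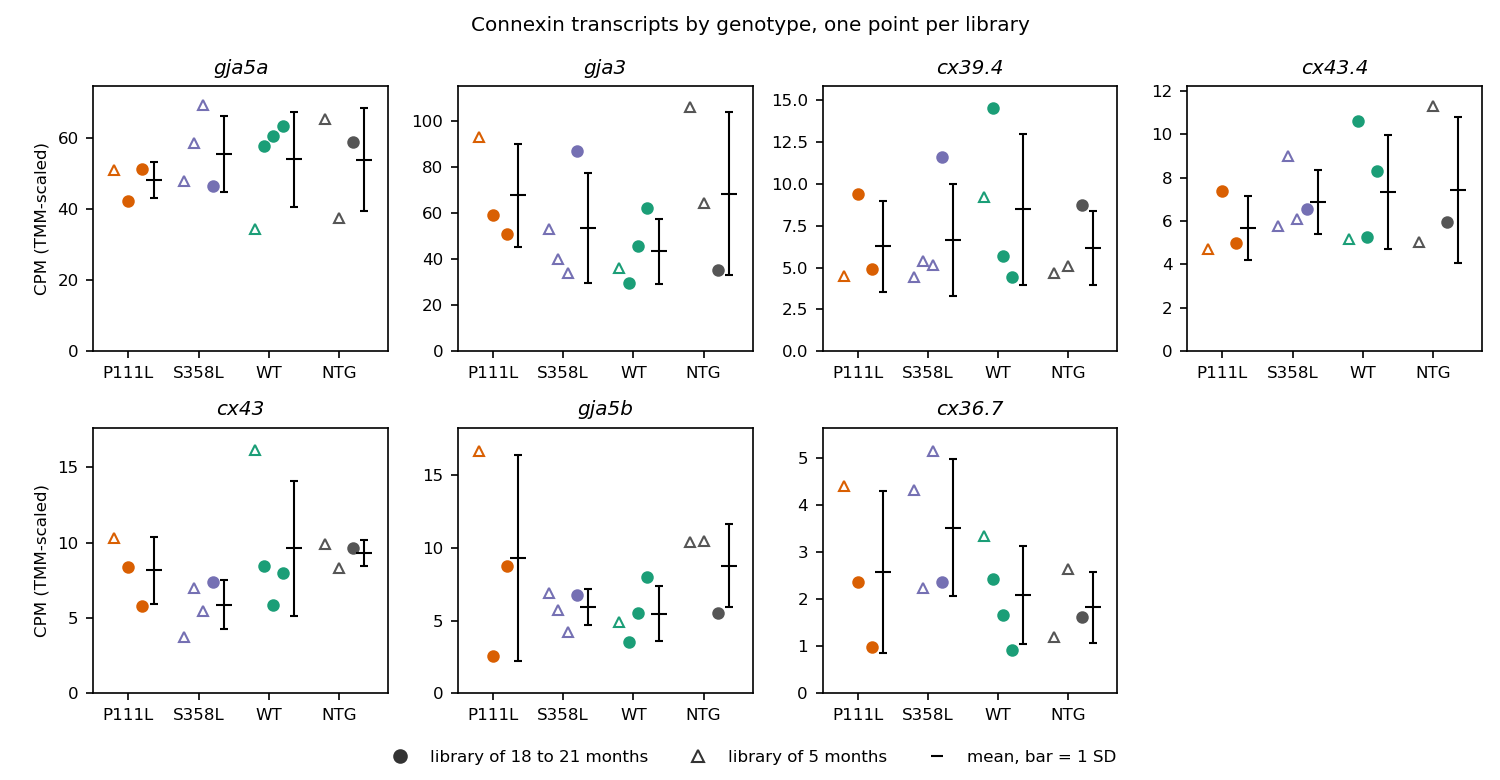
CPM (y axis, TMM-scaled) of each of the 7 connexin genes in TMEM43-P111L, TMEM43-S358L, TMEM43-WT and NTG ventricles (x axis), 1 point per library, with filled circles for 18 to 21 months and open triangles for 5 months; the dash and bar give the mean and 1 SD. The groups overlap in the panels, except that cx43 in TMEM43-S358L (3.75 to 7.40 CPM) lies below NTG (8.33 to 9.94 CPM).

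Markers of smooth muscle and of the atrium differed in part between the groups and are described here. Lists of other cell types also held called genes against NTG, beside 7.59, 6.15 and 8.34% of all genes in TMEM43-P111L, TMEM43-S358L and TMEM43-WT. In each line 1 of 9 epicardial and fibroblast markers and 1 of 8 leukocyte markers rose. Of 7 fast skeletal muscle markers, 1, 1 and 2 fell. The ventricular, thrombocyte and pigment cell lists held a call in some lines. All 9 of 9 smooth muscle and mural markers were tested and none was at 0 throughout. Their summed level was 192 to 371 CPM in TMEM43-P111L, 521 to 934 in TMEM43-S358L, 652 to 1068 in TMEM43-WT and 473 to 658 in NTG. In TMEM43-P111L the smooth muscle actin acta2 fell, to 31.7, 117 and 69.5 CPM, against 454, 679, 385 and 458 CPM in TMEM43-WT and 346, 329 and 446 CPM in NTG. TMEM43-S358L had 311, 537, 257 and 380 CPM. The log2 fold change of acta2 in TMEM43-P111L was -2.77 against TMEM43-WT (adjusted p = 0.00234 in edgeR) and -2.37 against NTG (adjusted p = 0.00379). Against TMEM43-S358L it was -2.36 (adjusted p = 0.00573). With the replicate block the calls against TMEM43-WT and TMEM43-S358L were lost (adjusted p = 0.120 and 0.0745 in edgeR). The gene acta2 was the 1 called gene of the 9 in each of the 3 comparisons. The shares of all genes called were 0.826% against TMEM43-WT, 7.59% against NTG and 1.04% against TMEM43-S358L. Against NTG the others did not follow it: the median log2 fold change of the list in TMEM43-P111L was 0.307. Without acta2 the summed level was 160 to 254 CPM in TMEM43-P111L and 144 to 212 CPM in NTG. In TMEM43-WT it was 268 to 470 CPM and in TMEM43-S358L 264 to 397 CPM, both above TMEM43-P111L. The median over the whole list, acta2 included, was -0.272 for TMEM43-P111L against TMEM43-WT and -0.603 against TMEM43-S358L. Not every marker went this way. In TMEM43-P111L tagln had 36.5 to 126 CPM, against 129 to 270 CPM in TMEM43-WT. By contrast, myh11a had 25.2 to 36.4 CPM in TMEM43-P111L, within its 17.1 to 43.0 CPM in TMEM43-WT. The calponin gene cnn1b rose against NTG in TMEM43-S358L, with 1.14 (adjusted p = 0.00596), and in TMEM43-WT, with 1.06 (adjusted p = 0.00716). It was the 1 call of 9 in each, beside 6.15 and 8.34% of all genes. Both calls held in all 14 fits that leave out a library. The call in TMEM43-S358L was lost among the 5-month libraries (adjusted p = 0.111 in edgeR). That in TMEM43-WT was lost with the replicate block (adjusted p = 0.0905).

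Of 5 atrial markers, all tested, 2 rose against NTG in TMEM43-P111L, 2 in TMEM43-S358L and 1 in TMEM43-WT, beside 7.59, 6.15 and 8.34% of all genes. Their summed level overlapped between the groups. It was 1144 to 1758 CPM in TMEM43-P111L, 1213 to 1741 in TMEM43-S358L, 1349 to 1559 in TMEM43-WT and 1195 to 1717 in NTG. Most of this sum came from nppa, with 1055 to 1691 CPM in a library, so it says little about the other markers. The median log2 fold change of the list against NTG was 0.928 in TMEM43-P111L, 0.886 in TMEM43-S358L and 0.615 in TMEM43-WT. The log2 fold change of myh6 against NTG was 1.93 in TMEM43-P111L (adjusted p = 0.0289 in edgeR) and 1.79 in TMEM43-S358L (adjusted p = 0.0380), and 9 and 5 of the 14 fits that leave out a library kept these calls. In TMEM43-P111L the call was lost without NTG replicate 3 or 4 or any of the 3 libraries of the line, and in TMEM43-S358L the 5 fits that kept it were those without TMEM43-P111L replicate 2, TMEM43-S358L replicate 1 or TMEM43-WT replicate 1, 4 or 6. The other called atrial marker was smtnl1, which rose in all 3 lines against NTG. It was lower in TMEM43-S358L than in TMEM43-WT, with a log2 fold change of -1.34 (adjusted p = 0.00747 in edgeR). The part of these markers in the levels of the connexins was not tested.

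The gene cx39.4, which acts with gja5b in zebrafish pigment stripes and which RefSeq names gja4, after an endothelial connexin of mammals, varied with single libraries. It had 4.53, 9.40 and 4.91 CPM in TMEM43-P111L ventricles, 4.45, 5.40, 5.16 and 11.6 in TMEM43-S358L, 9.21, 14.5, 5.71 and 4.45 in TMEM43-WT, and 4.67, 5.12 and 8.71 in NTG. Within TMEM43-P111L, TMEM43-S358L and TMEM43-WT the highest library was one of 18 to 21 months, as it was in NTG. The log2 fold changes against NTG were 0.02 (95% interval -0.96 to 1.001) for TMEM43-P111L, 0.11 (-0.81 to 1.03) for TMEM43-S358L and 0.45 (-0.47 to 1.38) for TMEM43-WT.

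By age, cx39.4 and cx36.7 had the smallest unadjusted p of the 7 genes, and neither passed the adjusted threshold. Levels of cx39.4 were 4.45 to 14.5 CPM at 18 to 21 months and 4.45 to 9.21 CPM at 5 months (medians 8.71 and 5.12 CPM, 7 libraries each). Between the ages the log2 fold change was 0.62 ± 0.28 (SE; edgeR unadjusted p = 0.0450, adjusted p = 0.355), and it was 0.40 without TMEM43-S358L replicate 4 and 0.92 without TMEM43-WT replicate 1. Arterial endothelial markers, 5 of 6 of which were tested, did not follow cx39.4 throughout. Their summed level was highest in that TMEM43-S358L library within its group, with 338 CPM against 216 to 221 CPM in the other 3. In TMEM43-WT replicate 4, with the most cx39.4 of the 14 libraries, it was also the highest of all, at 367 CPM. It was lowest of its group in the TMEM43-P111L library with most cx39.4 (252 CPM, against 325 and 333 CPM). The same held for NTG (292 CPM, against 296 and 315 CPM). In TMEM43-WT replicate 6, which had the least cx39.4 of its group, it was 348 CPM. Most of this sum came from notch1b, with 166 to 290 CPM in a library, so it says little about the other markers. The part of the arterial markers in the level of cx39.4 was not tested.

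The gene cx36.7 is a cardiac connexin of the zebrafish embryo that is needed for the orderly arrangement of the myofibrils. It had 4.41, 2.36 and 0.982 CPM in TMEM43-P111L ventricles, 4.33, 2.23, 5.16 and 2.38 in TMEM43-S358L, 3.36, 2.44, 1.66 and 0.923 in TMEM43-WT, and 1.19, 2.65 and 1.63 in NTG, from 22 to 115 reads. The ranges were 0.923 to 2.44 CPM at 18 to 21 months and 1.19 to 5.16 CPM at 5 months, with medians of 1.66 and 3.36 CPM. The 5-month library of TMEM43-P111L and that of TMEM43-WT were the highest of their group. In TMEM43-S358L the 19-month library (2.38 CPM) exceeded a 5-month library (2.23 CPM). In NTG the 21-month library (1.63 CPM) lay between those of 5 months (1.19 and 2.65 CPM). Between the ages the log2 fold change was -0.85 ± 0.34 (SE; 95% interval -1.58 to -0.12; edgeR unadjusted p = 0.0247, adjusted p = 0.282), and -0.92 without genotype as a covariate (adjusted p = 0.221). Against NTG it was 0.49 (-0.69 to 1.68) for TMEM43-P111L, 0.94 (-0.18 to 2.07) for TMEM43-S358L and 0.19 (-0.93 to 1.31) for TMEM43-WT.

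**Figure D4:**
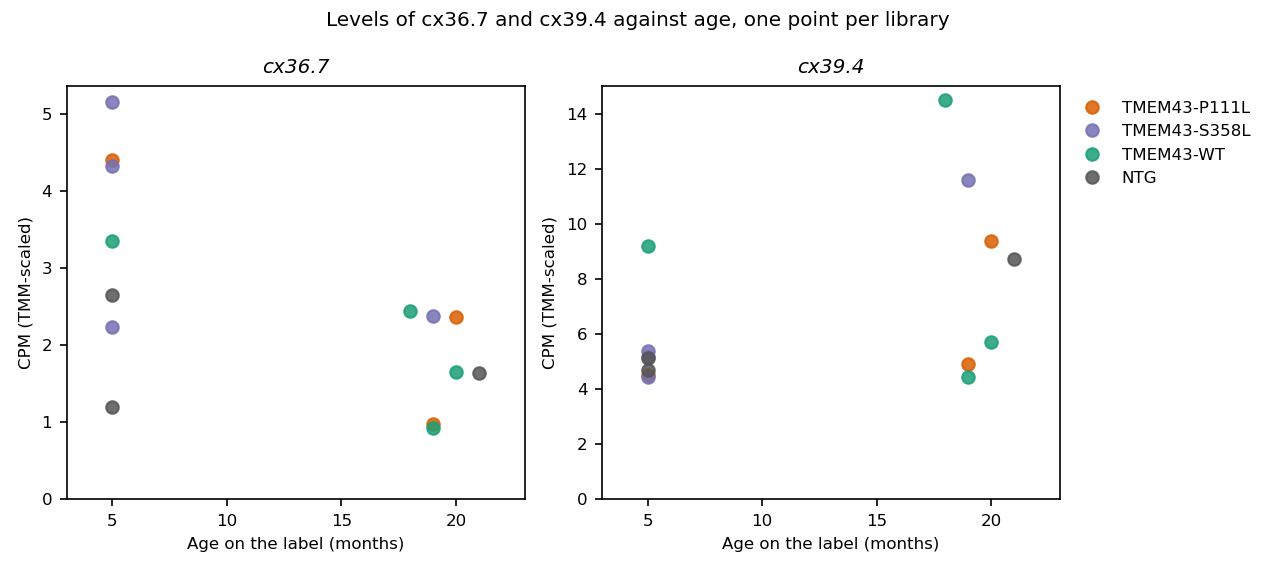
CPM (y axis, TMM-scaled) of cx36.7 and cx39.4 against the age on the label (x axis, months), 1 point per library and coloured by genotype. The values of cx36.7 reach 2.44 CPM at 18 to 21 months and 5.16 CPM at 5 months, and those of cx39.4 reach 14.5 CPM at 18 to 21 months and 9.21 CPM at 5 months, with low values at both ages.

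The gamma connexin cx43.4, known in zebrafish from Kupffer's vesicle and left-right patterning, had overlapping levels in the 4 groups. It had 4.72, 7.38 and 4.97 CPM in TMEM43-P111L ventricles, 5.77, 9.01, 6.10 and 6.54 in TMEM43-S358L, 5.17, 10.6, 5.25 and 8.31 in TMEM43-WT, and 5.04, 11.3 and 5.95 in NTG. The lowest of the 14 values was in TMEM43-P111L and the highest in NTG, and the groups overlapped. The log2 fold changes against NTG were -0.38 (95% interval -1.13 to 0.36) for TMEM43-P111L, -0.11 (-0.81 to 0.58) for TMEM43-S358L and -0.014 (-0.71 to 0.68) for TMEM43-WT, and for age it was 0.12 (-0.47 to 0.71).

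For age, the intervals of the other connexins included 0. The log2 fold change at 18 to 21 months against 5 months was 0.13 for gja5a (95% interval -0.28 to 0.53), -0.04 for gja3 (-0.71 to 0.64), -0.48 for gja5b (-1.21 to 0.25) and -0.29 for cx43 (-0.78 to 0.20). Changes within these intervals remain compatible with the data of these libraries.

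Among the 7 genes, some varied together over the libraries. The Pearson correlation of log2 CPM over the 14 libraries was 0.664 for gja3 and gja5b and 0.370 for cx43 and cx39.4. It was -0.639 for gja5b and cx39.4 and -0.359 for gja3 and cx39.4, while gja5a stayed between -0.357 and 0.0168 with each of the others. These values describe 14 libraries that share genotype, age and scaling, and they are given without a test. In the same way the genes with log2 CPM most like gja3, among 7987 genes that averaged 5 CPM or more, were fam122b (0.900), mtus1a (0.892), sp2 (0.871), lrig2 (0.868) and ube3a (0.859). For gja5a they were slc25a16 (0.858), mxi1 (0.849), stk35l (0.845), kat6b (0.845) and phldb1a (0.839). For cx39.4 they were pecam1 (0.817), an adhesion molecule of endothelial cells, clcn5b (0.775), the chemokine receptor gene cxcr4b (0.767), the intermediate filament gene vim (0.760) and smad5 (0.744). Each list holds the highest of 7987 values over 14 libraries, so its correlations are high in part through this choice. A link to a cell type was not tested.

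Among genes whose products bind, phosphorylate or deliver connexins, 3 were called in some line. Of a list of 52 partners and regulators 49 were found and 48 tested, among them the scaffold tjp1a, caveolins, kinases, calmodulins and the microtubule plus-end protein EB1, which is encoded by mapre1a and mapre1b and known to guide connexin delivery to the cell border. In TMEM43-P111L 2 of 48 rose and 0 fell against NTG, in TMEM43-S358L 1 rose and 1 fell, and in TMEM43-WT 2 rose and 1 fell, and 0 of 48 were called between the lines or for age. The medians of the list were 0.063, 0.07 and 0.005 in TMEM43-P111L, TMEM43-S358L and TMEM43-WT. These counts lie below the shares of 7.59, 6.15 and 8.34% over all genes given above and are no result about the list.

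The EB1 gene mapre1a rose in TMEM43-P111L and TMEM43-WT. It had 23.6, 30.1 and 20.3 CPM in TMEM43-P111L ventricles, 23.5, 20.3, 20.0 and 18.8 in TMEM43-S358L, 39.9, 26.2, 25.5 and 20.4 in TMEM43-WT, and 12.1, 10.1 and 14.5 in NTG. Every library of the 3 lines exceeded every NTG library. Of all tested genes, 27.1% in TMEM43-P111L, 19.2% in TMEM43-S358L and 21.7% in TMEM43-WT had no overlap with NTG. The lines share the same NTG libraries, and the gene was named because it was called, so the lack of overlap is a description. The same holds for mapre1b and prkcda below. Against NTG the log2 fold change was 1.01 ± 0.24 (SE; adjusted p = 0.0200 in edgeR) in TMEM43-P111L, 0.76 ± 0.23 (adjusted p = 0.0602, not called) in TMEM43-S358L and 1.20 ± 0.23 (adjusted p = 0.00689) in TMEM43-WT. In TMEM43-P111L it was not called without NTG replicate 2 (adjusted p = 0.0532), NTG replicate 3 (0.0818) or TMEM43-P111L replicate 3 (0.0821), nor with the 2 groups alone (0.0546).

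Its paralog mapre1b rose in all 3 lines. It had 170.1, 164 and 127 CPM in TMEM43-P111L ventricles, 127, 152, 168 and 166 in TMEM43-S358L, 186, 145, 162 and 153 in TMEM43-WT, and 114, 79.0 and 92.3 in NTG, again without overlap with NTG. Against NTG the log2 fold change was 0.69 (adjusted p = 0.0398 in edgeR) in TMEM43-P111L, 0.69 (adjusted p = 0.0367) in TMEM43-S358L and 0.76 (adjusted p = 0.0190) in TMEM43-WT. Without NTG replicate 3 the adjusted p was 0.151, 0.153 and 0.0869 in the 3 lines, so that each call was lost. In TMEM43-P111L it was also lost without NTG replicate 4, TMEM43-P111L replicate 2 or 3, TMEM43-S358L replicate 2 or TMEM43-WT replicate 5, and in TMEM43-S358L without NTG replicate 4, TMEM43-S358L replicate 2, 3 or 4 or TMEM43-WT replicate 5. With the 2 groups alone the adjusted p was 0.109 for TMEM43-P111L and 0.0805 for TMEM43-S358L, which had 0.259 among the 5-month libraries.

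The gene prkcda, which encodes a protein kinase C of the delta type, fell in TMEM43-S358L and TMEM43-WT. It had 27.3, 19.7 and 18.7 CPM in TMEM43-P111L ventricles, 26.4, 27.6, 15.8 and 14.7 in TMEM43-S358L, 11.5, 22.3, 15.9 and 13.1 in TMEM43-WT, and 31.3, 53.8 and 41.4 in NTG. No library of the lines reached the lowest NTG library. Against NTG the log2 fold change was -0.95 (adjusted p = 0.0671, not called) in TMEM43-P111L, -0.996 (adjusted p = 0.0444 in edgeR) in TMEM43-S358L and -1.42 (adjusted p = 0.00730) in TMEM43-WT. The call in TMEM43-S358L was lost without NTG replicate 3 or 4, TMEM43-S358L replicate 3 or 4, TMEM43-P111L replicate 3 or 4 or TMEM43-WT replicate 5 or 6 (adjusted p up to 0.193), with the 2 groups alone (0.0829) and among the 5-month libraries (0.237), while that in TMEM43-WT held in all 14 fits that leave out a library.

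**Figure D5:**
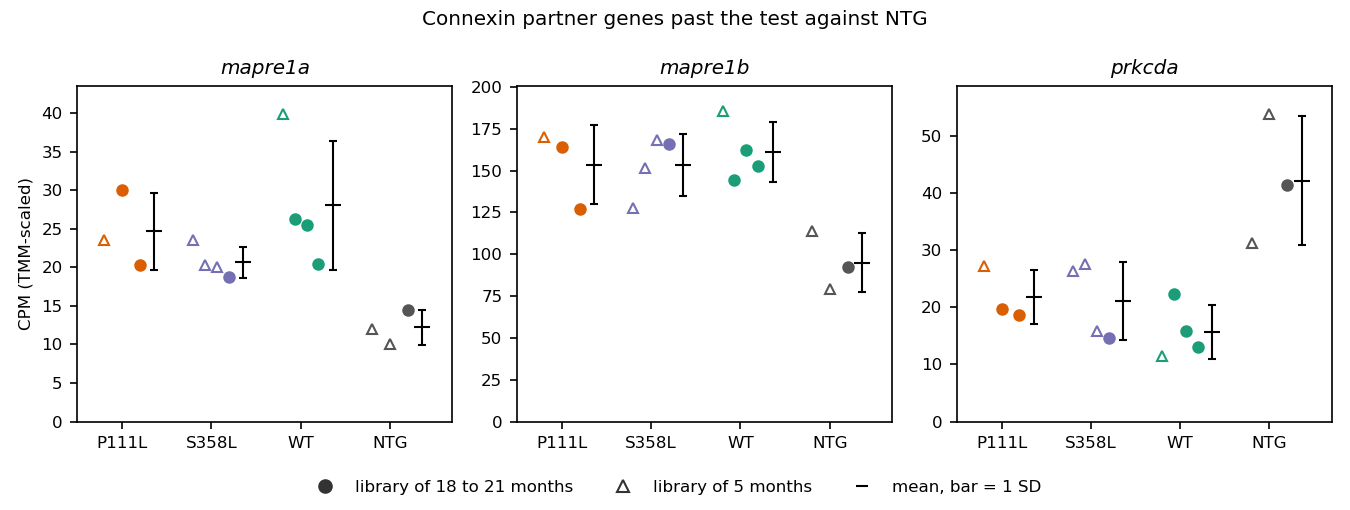
CPM (y axis, TMM-scaled) of mapre1a, mapre1b and prkcda in TMEM43-P111L, TMEM43-S358L, TMEM43-WT and NTG ventricles (x axis), 1 point per library, with filled circles for 18 to 21 months and open triangles for 5 months; the dash and bar give the mean and 1 SD. Both mapre1 genes lie higher in every library of the 3 lines than in NTG (10.1 to 14.5 CPM for mapre1a and 79.0 to 114 CPM for mapre1b), and prkcda lies lower than the 31.3 to 53.8 CPM of NTG. Of all tested genes, 19.2 to 27.1% had no overlap with NTG in a line.

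Of 22 transcription factors known to act on cardiac connexin genes 20 were tested. Against NTG 1 was called in TMEM43-P111L, 1 in TMEM43-S358L and 2 in TMEM43-WT, near the shares of 7.59, 6.15 and 8.34% over all genes, so that the counts are no result about the list. In TMEM43-P111L tbx2b, a repressor of chamber genes including connexins, rose with a log2 fold change of 1.07 (14.0, 17.4 and 15.1 CPM, against 10.8, 6.01 and 5.32 CPM in NTG; adjusted p = 0.0347 in edgeR). In TMEM43-S358L the ventricular factor irx4a fell with a log2 fold change of -3.77 (0, 0.0745, 0 and 0.429 CPM, against 2.11, 2.14 and 1.21 CPM in NTG; adjusted p = 0.0196); at so few reads the fitted value depends on the prior count. In TMEM43-WT irx5a rose by 0.88 (111.2, 91.5, 101 and 78.8 CPM, against 38.4, 45.3 and 71.8 CPM in NTG; adjusted p = 0.0499) and gata6 fell by 0.52 on the log2 scale (44.7, 51.7, 48.2 and 42.5 CPM, against 67.9, 70.7 and 62.6 CPM in NTG; adjusted p = 0.0366). Each of the 4 calls was lost without NTG replicate 3, with adjusted p = 0.123 for tbx2b, 0.0519 for irx4a, 0.158 for irx5a and 0.118 for gata6 (edgeR). With age as a covariate the adjusted p was 0.0571 for tbx2b, 0.0604 for irx5a and 0.0544 for gata6, and with the 2 groups alone each of the 4 calls was lost, at 0.0541 to 0.0998. The call of tbx2b was also lost without NTG replicate 4 or TMEM43-P111L replicate 2, 3 or 4, that of irx4a without TMEM43-S358L replicate 2, and that of gata6 without NTG replicate 2 or TMEM43-WT replicate 1, 5 or 6. The call of irx5a was kept in 4 of the 14 fits that leave out a library, those without NTG replicate 4, TMEM43-P111L replicate 2 or TMEM43-S358L replicate 1 or 2. The shifts of these 4 genes were not limited to the line of the call. All libraries of TMEM43-P111L (0.397 to 0.895 CPM) and TMEM43-WT (0.0939 to 0.737 CPM) had less irx4a than NTG. Likewise, gata6 was below NTG in all libraries of TMEM43-P111L (48.4 to 56.0 CPM) and TMEM43-S358L (43.9 to 51.4 CPM). The shares of all genes without overlap are given above. For irx5a and tbx2b the means of the other lines also exceeded that of NTG, with overlap. The other members were not called, and 0 of 20 were called between the lines or for age.

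The pannexins, which form single-membrane channels of a related fold, were represented by panx1a, 1 of 4 genes tested. It had 2.98, 4.67 and 2.86 CPM in TMEM43-P111L ventricles, 5.07, 4.17, 3.36 and 3.82 in TMEM43-S358L, 3.41, 6.20, 3.87 and 5.87 in TMEM43-WT, and 5.09, 5.63 and 4.82 in NTG. The TMEM43-P111L libraries were below the NTG libraries, where 27.1% of all tested genes had no overlap, and overlapped with the other lines. The log2 fold change of -0.57 in TMEM43-P111L against NTG was not called (adjusted p = 0.291 in edgeR). The genes panx1b, panx2 and panx3 had at most 0.183 CPM in a library.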

How the data were processed

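RNA-seq of 14 libraries was analysed (TruSeq Stranded mRNA kit). According to the submitters' processing notes, the authors used cutadapt 2.5 for trimming, STAR 2.7.2b for alignment to GRCz11 and featureCounts 1.6.4 for counting. The deposited values are expected counts per gene, not scaled for depth or length; 13405 of 39289 rows hold values that are not whole, with 77.6% of all reads. How such reads and the strand were handled is not given in the sources used here. Counts were rounded, scaled by TMM and tested in R 4.3.3 by edgeR 4.0.16 (quasi-likelihood, robust, filterByExpr, 4 genotypes in 1 fit); DESeq2 1.42.0 was an alternative. Ages were divided at 12 months. CPM are TMM-scaled unless stated; levels of different genes are compared as CPM per kilobase of the deposited exon length. Intervals are 95% intervals from the edgeR fit. The tests were checked on simulated counts.

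Of the 8 connexin genes that met the rule, 1 is not reported here; it stayed in the fits over all genes, and counts and sums are over the other 7. Named are these 7 genes, the called genes of the partner and transcription factor lists, and the 5 most like each of the 3 highest. Of the marker lists, acta2, cnn1b, tagln, myh11a, notch1b, vmhc, myh6, smtnl1 and nppa were named after their values were seen. Other called markers, also those of other cell types, are not named. The genes, lists and tests were chosen with earlier results of these data known. Names were matched to RefSeq by gene ID for 32 of 32 rows. Alternatives were DESeq2 and its size factors, other filters, a fold threshold of 0.5, age as a covariate, no genotype covariate, the 2 groups alone, 5-month libraries alone, a replicate block and leaving out each library. The labels do not say that libraries come from separate fish beyond their pools, so p-values measure the spread between these libraries.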

Additional observations from a re-analysis of the deposited data

Results flagged for a closer look

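One value stood apart within its group. The level of cx39.4 in TMEM43-S358L replicate 4 was 11.61 CPM, against 4.45, 5.40 and 5.16 CPM in the other 3 libraries of the line. The gap to the nearest library was 0.867 of the range of the group, above Dixon's 95% critical value for 4 samples. It is the only TMEM43-S358L library of 19 months. Of 14 groups of 4 libraries examined, 1 was marked in this way, and chance marks about 1 in 20.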

How the results depend on the processing

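The count of called connexins was 0 in each comparison under each alternative run on it. All 7 comparisons were run with DESeq2, DESeq2 size factors, both other filters, the fold threshold of 0.5, the replicate block, leaving out each of 14 libraries, and leaving out the 2 libraries of lowest TMM factor (TMEM43-WT replicate 1 and TMEM43-S358L replicate 3), which was chosen after seeing the data. Age as a covariate and the 2 groups alone were run on the 6 genotype comparisons, the fit without a genotype covariate on age, and the 5-month libraries alone on TMEM43-S358L against NTG. Of 1127 fold changes under alternatives 72 had the other sign, 0 of them with an unadjusted p under 0.05. The log2 fold change of cx43 in TMEM43-S358L against TMEM43-WT ran from -1.17 to -0.31, and was -0.31 without the 2 libraries of lowest TMM factor. For age, cx36.7 ran from -1.03 to -0.67 and cx39.4 from 0.40 to 1.42. The causes were not tested.

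The replicate numbers gave no clear pairing of the libraries. Deviations from the group means correlated at -0.228 to 0.264 over 13 pairs of the same number (median 0.0633, 4 over 0.1). Over 60 pairs of other numbers they correlated at -0.297 to 0.226 (median 0.00789, 11 over 0.1). For 3 of 12 libraries the best partner had the same number. With the replicate block 0 connexins were called, and the counts over all genes were 658 in TMEM43-P111L, 432 in TMEM43-S358L and 26 in TMEM43-WT against NTG, beside 1324, 1073 and 1454 without it. Replicate numbers 5 and 6 occur in TMEM43-WT alone, so with the block these libraries add nothing to its comparison with NTG. Without the block, DESeq2 called 2147, 1950 and 2392 genes in the comparisons with NTG. With 22 to 115 reads per library, cx36.7 is limited by counting as well as by the spread between libraries.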
